A study of Mus musculus with 7 samples.

Results

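The respiratory chain genes of mouse pancreatic islets were compared between the grandsons of androgen-exposed and of vehicle-treated mothers. Genes were taken by symbol: those starting with mt-, Nduf, Uqcr or Atp5, or with Cox followed by a digit from 4 to 8, and Sdha, Sdhb, Sdhc, Sdhd, Cyc1 and Cycs. This rule found 110 of the 21899 genes listed, of which 13 were mitochondrially encoded mRNAs, 87 were entries for nuclear encoded subunits and the remaining 10 were assembly factors and related genes. An average of 10 counts or more over both libraries was reached by 104 of them. The 6 left out were Cox6b2, Cox7a1, Cox7b2, Cox8b, Cox8c and a further identifier carrying the symbol Atp5o, which had 0 counts in both libraries.

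The founder mothers were C57BL/6J mice injected subcutaneously once a day in late gestation with dihydrotestosterone in benzyl benzoate and corn oil (androgen exposure, AE) or with the vehicle alone (control). Their F1 sons were mated with untreated wild-type females, and islets of the resulting F2 males were profiled by RNA-seq, so that the AE-F2 animals had received no hormone themselves. GEO's labels call the AE group hyperandrogenism. No transgene or targeted allele is named for any group. The age of the F2 males at islet isolation and the number of animals behind a library were not found in the sources used here. Islets were released with collagenase, separated from exocrine tissue on a density gradient and picked by hand. The methods add a culture step after isolation and do not say whether the islets for RNA-seq went through it. The labels give 3 control-F2 and 4 AE-F2 samples. Control-F2 replicate 1 and AE-F2 replicate 4 were analysed, and the other 5 were not analysed here. With 1 library per group there is no replicate check and no test, so each value below describes these 2 libraries and not the conditions.

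The respiratory chain carries electrons from NADH (complex I) and succinate (complex II) through ubiquinone to complex III, on to cytochrome c and then to oxygen at complex IV, and the proton gradient so made drives ATP synthesis by complex V. Mitochondrial DNA (mtDNA) encodes the hydrophobic core subunits of complexes I, III, IV and V, whereas all other subunits, and the whole of complex II, are encoded in the nucleus and imported. In β-cells, the ATP made in this way closes potassium channels of the plasma membrane and so links glucose to insulin release.

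The libraries held 16285888 (control-F2) and 21278513 (AE-F2) estimated counts. Values are given as counts, as counts scaled by TMM to a total of 1000000 (CPM), as CPM per kilobase of transcript where genes are compared with each other, or as the log2 ratio between AE-F2 and control-F2 (positive where AE-F2 is higher) after adding 0.5 counts. At least 25% higher or 20% lower in the AE-F2 library, a factor of the same size in either direction, is used below as a threshold of size. A ratio is followed by its 95% Clopper-Pearson counting interval. This interval covers counting error alone and says nothing of animal-to-animal variation. Copies made by PCR are no separate molecules and the counts are estimates, so even the counting error may be larger than the interval shows. For a single gene, "beyond counting error" below means that this interval leaves out equality. In bulk islets, fewer cells of a type and less RNA per cell cannot be told apart. All 11 genes of the β-cell marker list were detected, and they summed to 204072 CPM in the control-F2 and 204181 CPM in the AE-F2 library. Of these 11, 9 were lower in the AE-F2 library beyond counting error and 2 were higher. Over all genes that averaged 10 counts or more, 13.7% were lower and 13.2% higher beyond it, which is the background for the lists that follow too. Of the α-cell list, 7 of 8 genes were higher in the AE-F2 library (22949 against 29291 CPM in sum), with 4 of the 8 higher beyond counting error. Of the acinar list, 12 of the 13 genes with enough counts were lower, all 12 beyond counting error (2821 against 2496 CPM in sum). All 9 B and plasma cell genes were higher beyond counting error (15.6 against 396 CPM in sum, with Pou2af1 at 0 in the control-F2 library). Of the list for myeloid and other immune cells, 7 of 9 genes were higher (245 against 357 CPM in sum), with 4 of the 9 higher beyond counting error. The largest ratios were those of Ptprc (66 and 343 counts) and Lyz2 (112 and 571 counts). C1qa was lower beyond counting error (-0.26, -0.42 to -0.09), and the intervals of Csf1r, C1qb, Adgre1 and Cd68 included equality. All 7 mesenchyme genes were also higher (313 against 375 CPM), with 6 beyond counting error. All 10 immediate early genes were lower beyond counting error (4157 against 2135 CPM). The δ-cell, PP-cell and endothelium lists had median log2 ratios of 0.03, 0.05 and -0.05. The part of these differences in the results below was not tested.

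All 13 mitochondrially encoded mRNAs were more abundant in the AE-F2 library, each beyond counting error. They summed to 822620 counts (5.05% of the library) in control-F2 and to 1223391 counts (5.75%) in AE-F2. This gave a log2 ratio of 0.189 (0.185 to 0.193) for the sum, a 1.14-fold difference. The 13 ratios had a median of 0.23 and ran from 0.12 for mt-Co1 to 0.49 for mt-Nd3, whereas the median over all 13627 genes that averaged 10 counts or more was 0.00. The 13 mRNAs are cut from the same long transcripts of the mtDNA, so they are not independent of each other. Ribosomal and transfer RNAs of the mtDNA were not among the genes listed.

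The mRNAs of 3 complex I subunits differed most. mt-Nd3 had 5066 counts in the control-F2 and 9282 in the AE-F2 library, a log2 ratio of 0.49 (0.44 to 0.54). mt-Nd4l had 3796 and 6460 counts, with a ratio of 0.38 (0.33 to 0.44). mt-Nd1 had 47171 and 78038 counts, with a ratio of 0.34 (0.33 to 0.36). These were the mitochondrially encoded mRNAs at least 25% higher, 3 of 13 (23.1%) against 11.3% of all genes, or 1.38% of those averaging 300 counts or more. With trends of length and GC content removed, the 3 fell below the threshold of 0.32 (mt-Nd3 0.29, mt-Nd4l 0.16, mt-Nd1 0.24). With trends fitted without members and ribosomal proteins, mt-Nd3 alone stayed past it (0.34, against 0.24 and 0.25). All 3 encode subunits of the proton-pumping membrane arm of complex I. The other mRNAs of this arm differed less. mt-Nd2 had a ratio of 0.23 (0.21 to 0.25), mt-Nd4 of 0.16 (0.15 to 0.18) and mt-Nd5 of 0.12 (0.11 to 0.13). mt-Nd6, the only one encoded on the light strand, had 14485 and 22056 counts and a ratio of 0.22 (0.19 to 0.25). Whether the counting used the strand is not given in the sources used here, and without it reads of mt-Nd6 and of the opposite strand cannot be told apart.

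Among the other complexes, mt-Cytb, which encodes cytochrome b of complex III, had 90514 counts in the control-F2 and 137605 in the AE-F2 library (0.22, 0.21 to 0.23). Of the catalytic core of complex IV, mt-Co1 had 232985 and 329575 counts and the smallest of the 13 ratios (0.12, 0.11 to 0.12). mt-Co2 had 75497 and 118493 counts (0.27, 0.25 to 0.28), and mt-Co3 had 84361 and 123927 counts (0.17, 0.16 to 0.18). The 3 mRNAs of complex IV thus differed from each other beyond counting error, with mt-Co2 highest. For complex V, mt-Atp6 had 65191 and 101598 counts (0.26, 0.24 to 0.27), and mt-Atp8 had 3028 and 4855 counts (0.30, 0.23 to 0.36).

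**Figure D1:**
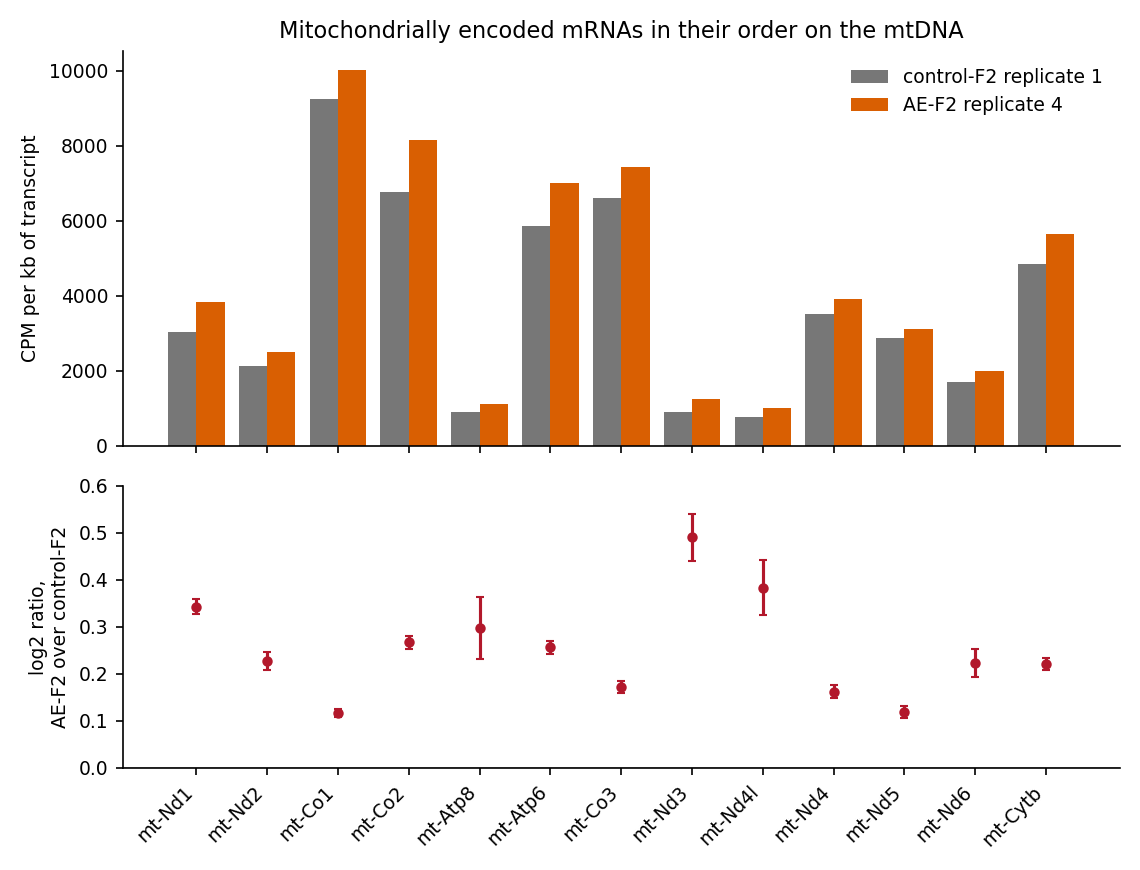
Mitochondrially encoded mRNAs in their order on the mtDNA. Bars give CPM per kb of transcript in the control-F2 library (grey) and the AE-F2 library (orange), and points in the lower panel give the log2 ratio with its 95% counting interval. Every AE-F2 bar is the taller one, and the ratios run from 0.12 (mt-Co1) to 0.49 (mt-Nd3).

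Levels per kb differed far more between the mRNAs than between the libraries. In the control-F2 library, mt-Co1 was the most abundant with 9252 CPM per kb, followed by mt-Co2 (6772), mt-Co3 (6602), mt-Atp6 (5873) and mt-Cytb (4854). The lowest were mt-Nd4l (784 CPM per kb), mt-Nd3 (893) and mt-Atp8 (911). In the AE-F2 library, mt-Co1 stood at 10033 and mt-Nd4l at 1023 CPM per kb, and mt-Nd3 (1254) lay above mt-Atp8 (1119), which it did not in the control-F2 library. The 3 least abundant mRNAs per kb were also the shortest, and the part of read counting on such short transcripts in these levels was not tested.

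Reading frames of the mtDNA overlap, which matters for counting by gene. The mt-Atp8 frame shares 43 bases with mt-Atp6 (21.1% of mt-Atp8), the mt-Nd4l frame shares 7 bases with mt-Nd4, mt-Atp6 shares 1 base with mt-Co3, and mt-Nd5 shares 14 bases with mt-Nd6 on the opposite strand. mt-Atp8 with mt-Atp6, and mt-Nd4l with mt-Nd4, are known to lie on a joint mRNA. The shorter frame of both pairs is shown from GENCODE M21 (GRCm38), with the bases that also belong to the next frame in capitals.
mt-Atp8, chrM:7766-7969, plus strand: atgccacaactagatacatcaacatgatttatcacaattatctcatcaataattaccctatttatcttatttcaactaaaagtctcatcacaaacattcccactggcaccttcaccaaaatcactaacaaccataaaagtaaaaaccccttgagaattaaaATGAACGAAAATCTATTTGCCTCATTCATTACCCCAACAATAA
mt-Nd4l, chrM:9877-10173, plus strand: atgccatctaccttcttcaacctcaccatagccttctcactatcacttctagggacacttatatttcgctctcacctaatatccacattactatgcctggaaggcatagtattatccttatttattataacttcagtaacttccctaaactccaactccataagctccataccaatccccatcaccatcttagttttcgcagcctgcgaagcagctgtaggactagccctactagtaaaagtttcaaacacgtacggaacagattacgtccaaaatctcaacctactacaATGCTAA
In both pairs the shorter, upstream frame had the higher ratio, with 0.30 for mt-Atp8 against 0.26 for mt-Atp6, whose intervals overlap, and 0.38 for mt-Nd4l against 0.16 for mt-Nd4, whose intervals do not. How reads in the shared bases were divided between genes is not given in the sources used here. Of the 13 frames, 10 end in a complete stop codon and 3 (mt-Co3, mt-Nd4 and mt-Cytb) end in a lone T, which polyadenylation completes. The annotated mRNAs have no UTRs, so their lengths are coding lengths.

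Nuclear encoded subunits were higher in the AE-F2 library by a smaller amount. Of the 81 that averaged 10 counts or more, 69 had a ratio above 0 and 12 below, with a median of 0.11. Together they held 78138 counts (0.480% of the library) in the control-F2 and 108892 counts (0.512%) in the AE-F2 library, a log2 ratio of 0.10 (0.08 to 0.11). For 35 of them the counting interval was above equality and for 1 below it. Over all members that averaged 10 counts or more, 48 of 104 (46.2%) lay above equality and 2 (1.92%) below, against 13.2% and 13.7% of all genes. At least 25% higher were 11 of the 104 (10.6%), against 11.3% of all genes, and 1 was at least 20% lower, against 6.92% of all genes.

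A share of genes past the 25% threshold depends on the number of counts, since weakly expressed genes pass it more often by counting error. Of the 7825 genes averaging 300 counts or more, 1.38% were at least 25% higher and 2.7% were at least 20% lower. Of the 89 members at this level, 9 (10.1%) were higher and 1 was lower. Their counting intervals lay above equality for 46 (51.7%) and below for 1, against 12.3% and 19.2% of all genes at this level. The median of all genes at this level was -0.02. The members thus lay above the background mostly by many small differences, and by few past the threshold of size. Length was not matched here. Among genes averaging 100 counts or more, 14.7% of nuclear encoded members under 750 nt were at least 25% higher, against 12% of others. Of the mitochondrially encoded mRNAs under 750 nt, 33.3% were. Between 750 and 1500 nt the nuclear and other shares were 10% and 6.2%, and between 1500 and 4000 nt 0% and 3.44%. With length and GC trends removed, 1 of 104 members was at least 25% higher (4 in the fit without members and ribosomal proteins).

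**Figure D2:**
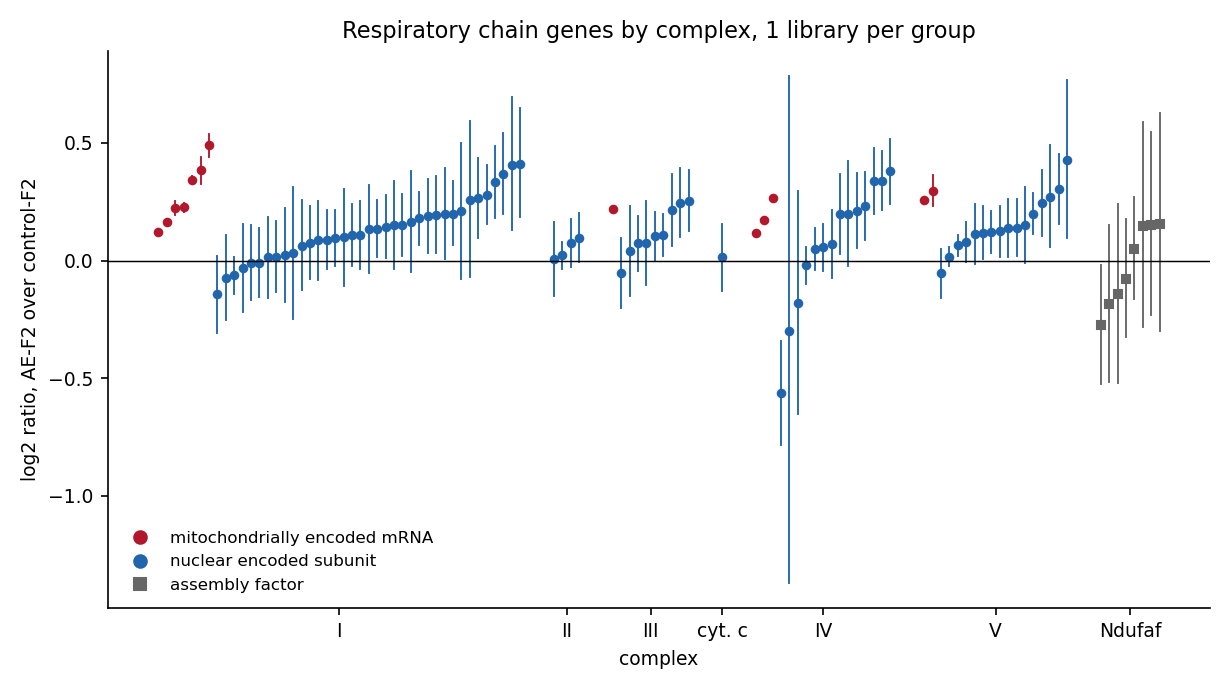
Log2 ratio between the AE-F2 and control-F2 libraries for each respiratory chain gene that averaged 10 counts or more, ordered within its complex. Points are single genes (red, mitochondrially encoded; blue, nuclear subunits; grey squares, complex I assembly factors), and bars are 95% counting intervals. The red points of each complex all lie above 0, and Cox6a2 of complex IV is the lowest point at -0.56.

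Complex I, the entry point for electrons from NADH, had 37 nuclear subunits with a median ratio of 0.13, of which 31 were above 0 and 14 (37.8%) beyond counting error, against 13.2% of all genes. Its mitochondrially encoded subunits had a median of 0.23. The 4 nuclear subunits that were at least 25% higher (10.8% of the 37, against 11.3% of all genes) were Ndufb6 (244 counts in the control-F2 and 424 in the AE-F2 library, 0.41, 0.18 to 0.65), Ndufa5 (165 and 286 counts, 0.41, 0.13 to 0.70), Ndufs5 (445 and 750 counts, 0.37, 0.20 to 0.54) and Ndufa12 (557 and 916 counts, 0.33, 0.18 to 0.49). Of the 33 nuclear subunits averaging 300 counts or more, 3 (9.09%) were at least 25% higher, against 1.38% of all genes at this level. With trends of length and GC content removed, Ndufa5 (0.34) alone of the 4 stayed past the threshold. With trends fitted without members and ribosomal proteins, Ndufa5 (0.36) and Ndufb6 (0.34) did. The 4 belong to the supernumerary subunits, which surround the catalytic core and make up 30 of the 37. The 7 nuclear core subunits, which carry the flavin and the iron-sulphur clusters or bind ubiquinone, had a median of 0.11, and the 30 supernumerary subunits one of 0.14. The lowest ratio was that of Ndufa7 (569 and 672 counts, -0.14, -0.31 to 0.02). Ndufb1-ps, which GENCODE M21 types as a non-coding RNA, had 167 and 252 counts (0.21, -0.08 to 0.50).

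Complex II, which is the succinate dehydrogenase of the citric acid cycle and has no mitochondrially encoded subunit, showed the smallest median of the complexes, 0.05. Sdha, the flavoprotein, had 4315 counts in the control-F2 and 5718 in the AE-F2 library (0.02, -0.03 to 0.08), and was the most abundant of its subunits per kb, with 91.3 and 92.7 CPM per kb. Sdhb, the iron-sulphur subunit, had 583 and 763 counts (0.00, -0.15 to 0.16). Of the membrane anchors, Sdhc had 1303 and 1817 counts (0.10, -0.01 to 0.20) and Sdhd 1343 and 1845 counts (0.07, -0.03 to 0.18). The intervals of all 4 included equality and reached no higher than 0.20.

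For complex III, which passes electrons from ubiquinol to cytochrome c, the 9 nuclear subunits had a median of 0.10, with 8 above 0 and 4 (44.4%) beyond counting error, against 13.2% of all genes. None was 25% higher, against 11.3% of all genes and 1.38% of those averaging 300 counts or more, a level that all 9 reached. Uqcrb, a small subunit, was both the most abundant per kb (93.9 and 112 CPM per kb) and the highest (819 and 1275 counts, 0.25, 0.13 to 0.38). The lowest was Cyc1, cytochrome c1, a catalytic subunit, with 662 and 832 counts (-0.05, -0.20 to 0.10). Cycs, the mobile carrier cytochrome c, had 717 and 944 counts and a ratio of 0.01 (-0.13 to 0.16). The mRNAs of Cyc1 and Cycs thus did not differ beyond counting error, while mt-Cytb had a ratio of 0.22.

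Complex IV, cytochrome c oxidase, held the lowest ratio of all members as well as 3 of those past the threshold upwards. Its 14 nuclear subunits had a median of 0.13, with 10 above 0. Ndufa4, a subunit once assigned to complex I, had 683 counts in the control-F2 and 1159 in the AE-F2 library (0.38, 0.24 to 0.52). Cox7c had 836 and 1381 counts (0.34, 0.22 to 0.47), and Cox5b had 669 and 1103 counts (0.34, 0.20 to 0.48). These 3 (21.4% of the 14) were at least 25% higher, against 11.3% of all genes. Of the 12 averaging 300 counts or more they made up 25%, against 1.38% of all genes at this level. With trends of length and GC content removed, all 3 fell below the threshold of 0.32 (Ndufa4 0.23, Cox7c 0.20, Cox5b 0.26). They also did with trends fitted without members and ribosomal proteins (0.28, 0.24 and 0.28). The most abundant subunit per kb, Cox8a, had 259 and 256 CPM per kb and a ratio of -0.02 (-0.10 to 0.06).

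Cox6a2 was the member that was at least 20% lower. This isoform of subunit VIa is best known from heart and skeletal muscle and had 359 counts in the control-F2 and 317 in the deeper AE-F2 library, that is 22.0 and 14.9 CPM (-0.56, -0.79 to -0.34). Its widely expressed paralogue Cox6a1 had 1407 and 1909 counts (0.06, -0.04 to 0.16). Cox6a2 therefore made up 20.3% (18.5% to 22.3%, Clopper-Pearson) of the pair's counts in control-F2 and 14.2% (12.8% to 15.8%) in AE-F2. The muscle genes Ckm and Tnnt3 had 0 counts in both libraries, which allows up to 0.184 CPM in the control-F2 and 0.141 CPM in the AE-F2 library. The muscle actin Acta1 had 15 and 23 counts, and the muscle gene Myh7 had 4 and 1. Of the brown fat genes in the same list, Cidea had 1 and 6 counts and Ucp1 had 1 and 0. The 9 β-cell markers that were lower had smaller differences, down to -0.28 for Slc2a2, and the part of β-cell content in the value of Cox6a2 was not tested.

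Of the other tissue-restricted paralogues, all but Ndufa4l2 had at most 17 counts in either library. Cox4i2, the lung isoform, had 16 and 17 counts against 1714 and 2313 for Cox4i1 (0.05, -0.04 to 0.14). Cox7a1, the heart and muscle isoform, had 0 and 7 counts against 473 and 707 for Cox7a2 (0.20, 0.03 to 0.37). Cox6b2, a testis isoform, had 1 count in each library against 542 and 819 for Cox6b1 (0.21, 0.05 to 0.37). Cox7b2 had 0 counts in both libraries, against 674 and 922 for Cox7b (0.07, -0.08 to 0.21). Cox8b and Cox8c also had 0 counts in both, against 2323 and 2988 for Cox8a. Ndufa4l2, a hypoxia-inducible paralogue of Ndufa4, had 72 and 83 counts (-0.18, -0.65 to 0.30). It made up 9.54% of the counts of the pair in the control-F2 and 6.68% in the AE-F2 library. How reads of near-identical copies and processed pseudogenes were divided is not given in the sources used here, so values of paralogues carry this uncertainty.

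Complex V, the ATP synthase, had 16 nuclear subunits with a median of 0.13, of which 15 were above 0 and 11 beyond counting error, against 13.2% of all genes. The highest was Atp5k, subunit e of the membrane part, with 119 and 209 counts (0.43, 0.10 to 0.77). It was the nuclear subunit of complex V that was at least 25% higher, 1 of 16 (6.25%) against 11.3% of all genes. With trends of length and GC content removed its ratio was 0.30, below the threshold of 0.32. It was 0.36 with trends fitted without members and ribosomal proteins. The lowest was Atp5d, a subunit of the central stalk, with 1355 and 1703 counts (-0.05, -0.16 to 0.05). Atp5b, the catalytic β subunit, was the most abundant per kb with 234 and 245 CPM per kb (7313 and 9973 counts, 0.06, 0.02 to 0.11). The c subunits of the rotor ring are encoded by 3 genes whose mature proteins are the same. Atp5g1 had 957 and 1375 counts (0.14, 0.02 to 0.26), Atp5g2 1101 and 1560 (0.12, 0.01 to 0.23) and Atp5g3 1184 and 1683 (0.12, 0.02 to 0.23). Their shares of the c subunit counts hardly moved, with 36.5% and 36.4% for Atp5g3.

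The mitochondrially encoded mRNAs had the higher median in each of the 4 complexes that hold both kinds of subunit. The nuclear median lay below the mitochondrial one by 0.09 in complex I, where it compares 37 with 7 genes. In complex III the difference was -0.12, in complex IV it was -0.04 and in complex V it was -0.15, with only 1 to 3 mitochondrially encoded genes in each. The order in complex IV turned with a minimum mean of 100 counts (nuclear median 0.20, mitochondrial 0.17), and also after removal of length and GC trends (0.06 against 0.05, or 0.09 against 0.07 with trends fitted without members and ribosomal proteins). After that removal the difference was -0.05 in complex I (-0.03 in the second fit), -0.07 in complex III (-0.07) and -0.02 in complex V (-0.04). Over all complexes the difference was -0.11, and it was -0.05 and -0.04 with the trends removed in these ways. The ranges overlapped, as 40 of the 81 nuclear subunits lay above the lowest mitochondrial ratio and 17 above the mitochondrial median. Per kb, the median mitochondrially encoded mRNA was 68.0 times as abundant as the median nuclear subunit in the control-F2 library (3024 against 44.5 CPM per kb), and 75.0 times in the AE-F2 library (3835 against 51.1 CPM per kb). With the length of each gene's longest transcript these ratios were 93.4 and 104.

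The log2 ratios moved with transcript length. Across the 13 mitochondrially encoded mRNAs, shorter ones had higher ratios (Pearson r = -0.73 with log2 length, Spearman rho = -0.80). The median was 0.28 for the 6 under 750 nt and 0.17 for the 7 that were longer. Across the 91 nuclear encoded members the correlation was weaker (r = -0.17, rho = -0.25), and across the 10526 genes of known length that averaged 100 counts or more it was r = -0.12 and rho = -0.14. Genes are not independent replicates, and these correlations describe a pair of libraries only.

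Against other genes of like length, the members still lay higher, by less in the classes under 4000 nt. Under 750 nt, the 34 nuclear encoded members had a median of 0.16 and the 184 genes that are not members one of 0.08. Between 750 and 1500 nt the medians were 0.08 for 30 members and 0.03 for 1129 others, and between 1500 and 4000 nt they were 0.08 for 21 members and -0.01 for 5378 others. Over 4000 nt they were 0.12 for only 2 members and -0.03 for 3735 others. After smooth trends with length and GC content were removed, the median of the mitochondrially encoded mRNAs was 0.12 and that of the nuclear subunits 0.07. All 13 mRNAs and 62 of the 81 subunits were then above 0. Ndufa5 was then the member that was at least 25% higher, and Cox6a2 stood at -0.64. The part of fragment length or RNA integrity in the trend was not tested.

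**Figure D3:**
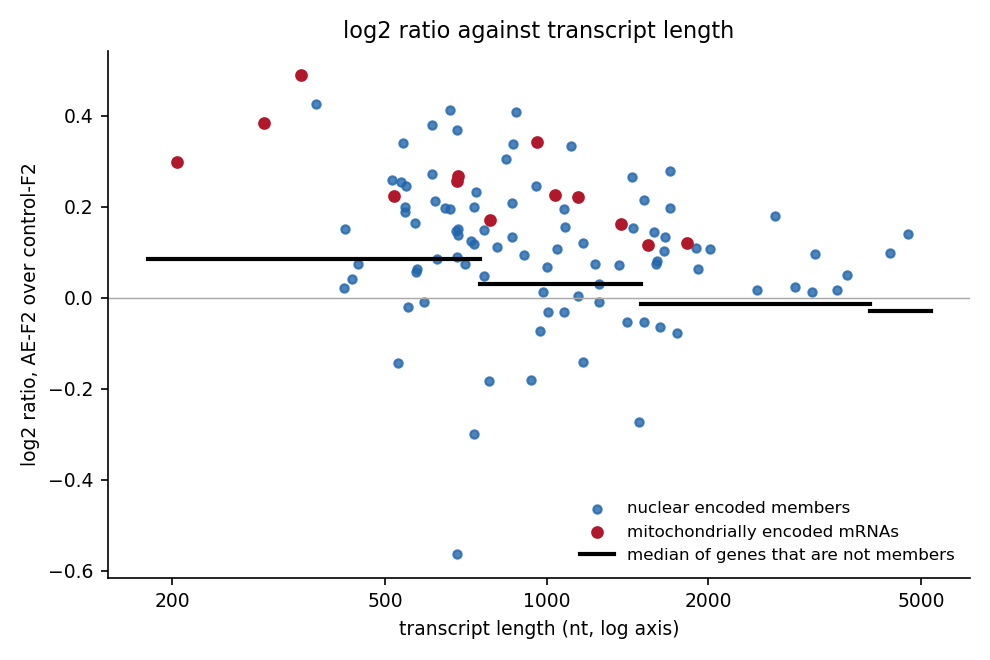
Log2 ratio between the AE-F2 and control-F2 libraries against transcript length on a log axis, for mitochondrially encoded mRNAs (red) and nuclear encoded members (blue). Black lines give the median of genes that are not members and average 100 counts or more in each length class, which falls from 0.08 under 750 nt to -0.03 over 4000 nt.

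Assembly factors of complexes I, III and IV had medians near 0. The 8 Ndufaf genes, which help to build complex I, had a median of -0.01, with 4 above and 4 below 0. With a minimum mean of 100 counts their median was -0.11. Ndufaf3 was the lowest (253 and 273 counts, -0.27, -0.53 to -0.02). Cox7a2l, which joins complexes III and IV into supercomplexes, had 3083 and 3938 counts (-0.03, -0.10 to 0.04). Atp5s, a factor of the ATP synthase, had 136 and 187 counts (0.07, -0.25 to 0.41). Of 20 complex IV assembly genes with enough counts, 10 were above 0 (median -0.01). Cmc1 (0.36, 0.00 to 0.72) and Cox20 (0.35, 0.05 to 0.66) were at least 25% higher, 2 of 20 against 11.3% of all genes. Sco2 (57 and 55 counts, -0.43) was at least 20% lower, 1 of 20 against 6.92%, with an interval that includes equality. Coa5, with the most counts of the complex IV assembly genes, had a ratio of 0.01. Complex III assembly genes had a median of 0.00, with Bcs1l, which inserts the iron-sulphur protein, at -0.35 (-0.61 to -0.10) and Uqcc2, with the most counts, at 0.13 (-0.01 to 0.26). The other 8 complex I assembly genes had a median of 0.02, with Acad9, which had the most counts of them over both libraries (412 and 541), at 0.01 (-0.18 to 0.20).

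Factors of complexes II and V had higher medians. The 4 complex II assembly genes had a median of 0.13, with Sdhaf4 highest (121 and 233 counts, 0.56, 0.24 to 0.89) and Sdhaf2, with the most counts, at 0.03. The 6 genes of the complex V list had a median of 0.16. Usmg5, which encodes a small membrane subunit of the ATP synthase also known as DAPIT, had 370 and 649 counts (0.43, 0.24 to 0.62), and Atpif1, the ATPase inhibitory factor, had 729 and 1227 counts (0.37, 0.23 to 0.50). Both encode small proteins that associate with the enzyme.

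Genes that make, process and control the mitochondrial transcripts had medians near or below 0. The 17 genes of mtDNA transcription and maintenance had a median of -0.13, with 6 above 0. Beyond counting error, 1 was higher and 3 were lower, against 13.2% and 13.7% of all genes. Tfam, which packages mtDNA and starts its transcription, had 544 and 679 counts (-0.06, -0.23 to 0.10), and Polrmt, the mitochondrial RNA polymerase, had 372 and 429 counts (-0.18, -0.38 to 0.03). Lonp1, a matrix protease and the gene with the most counts of the list, had a ratio of -0.13 (-0.24 to -0.02). Past the threshold of size were Polg2, the accessory subunit of the mtDNA polymerase (86 and 58 counts, -0.95, -1.46 to -0.45), and the near-identical pair Mterf1a (40 and 87 counts, 0.73) and Mterf1b (30 and 25 counts, -0.64). That is 1 of 17 genes higher and 2 lower, against 11.3% and 6.92% of all genes. Mterf1a and Mterf1b share most of their sequence, so the division of their reads is uncertain. The 16 genes of mitochondrial RNA processing had a median of 0.00 and none past the threshold, against 11.3% higher and 6.92% lower of all genes. Grsf1, which had the most counts, was at -0.06 and Lrpprc, which stabilises mitochondrial mRNAs, at 0.12 (0.01 to 0.23).

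Of the 12 nuclear regulators of respiratory genes, 6 were above 0 and the median was -0.02. Yy1 had the most counts. Nrf1 (344 and 431 counts, -0.06, -0.27 to 0.15), Gabpa (757 and 960 counts, -0.04, -0.18 to 0.10) and Yy1 (1621 and 2121 counts, 0.00, -0.09 to 0.10), which encode factors that bind promoters of respiratory genes, did not differ beyond counting error. Higher beyond it were Gabpb1, which encodes the partner of Gabpa (244 and 386 counts, 0.28, 0.04 to 0.52), and Nfe2l2, which encodes a factor of the oxidative stress response (644 and 1005 counts, 0.26, 0.11 to 0.40). The coactivator gene Ppargc1b had 45 and 26 counts (-1.16, -1.93 to -0.45), its relative Ppargc1a had 77 and 110 counts (0.13, -0.30 to 0.57), and Perm1 had 47 and 82 counts (0.41, -0.12 to 0.97). The genes for Tfam, Polrmt, Nrf1, Gabpa, Lrpprc and Ppargc1a are given here for their role in this pathway.

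Of the neighbouring pathways of the mitochondrion given in this paragraph, the carriers had the median closest to that of the nuclear subunits. Medians were 0.03 for the 13 genes of the tricarboxylic acid cycle, 0.03 for the 14 genes of pyruvate entry and shuttles, and -0.03 for the 13 genes of coenzyme Q synthesis. None was past the threshold, against 11.3% higher and 6.92% lower of all genes, or 1.38% and 2.7% of those averaging 300 counts or more. Those with the most counts in each list were Ogdh (-0.02, -0.07 to 0.03), Mdh1 (0.10, 0.04 to 0.17) and Coq2 (-0.09, -0.24 to 0.05). The 12 carriers, porins and import genes had a median of 0.09, with 11 above 0 and 5 (41.7%) beyond counting error, against 13.2% of all genes. Among them was Ucp2, the uncoupling protein of β-cells with 4788 and 7047 counts (0.17, 0.12 to 0.23). The 78 genes of the mitochondrial ribosome had a median of 0.00. Of these, 43 were above 0, and Mrpl27 (-0.37), Mrpl19 (-0.35) and Mrps27 (-0.34) were at least 20% lower, which is 3 of 78 genes against 6.92% of all genes. Mrpl10, with the most counts, had a ratio of 0.04.

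Genes of the cytosolic ribosome were mostly higher in the AE-F2 library too. Their 81 genes had a median of 0.14, with 74 above 0 and 62 (76.5%) beyond counting error, against 13.2% of all genes, and summed to 13955 CPM in the control-F2 and 15199 CPM in the AE-F2 library. The nuclear subunits of the chain, with a median of 0.11, had 69 of 81 above 0 and 35 (43.2%) beyond counting error. The mitochondrially encoded mRNAs had a median of 0.23. The differences between these groups were not tested.

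**Figure D4:**
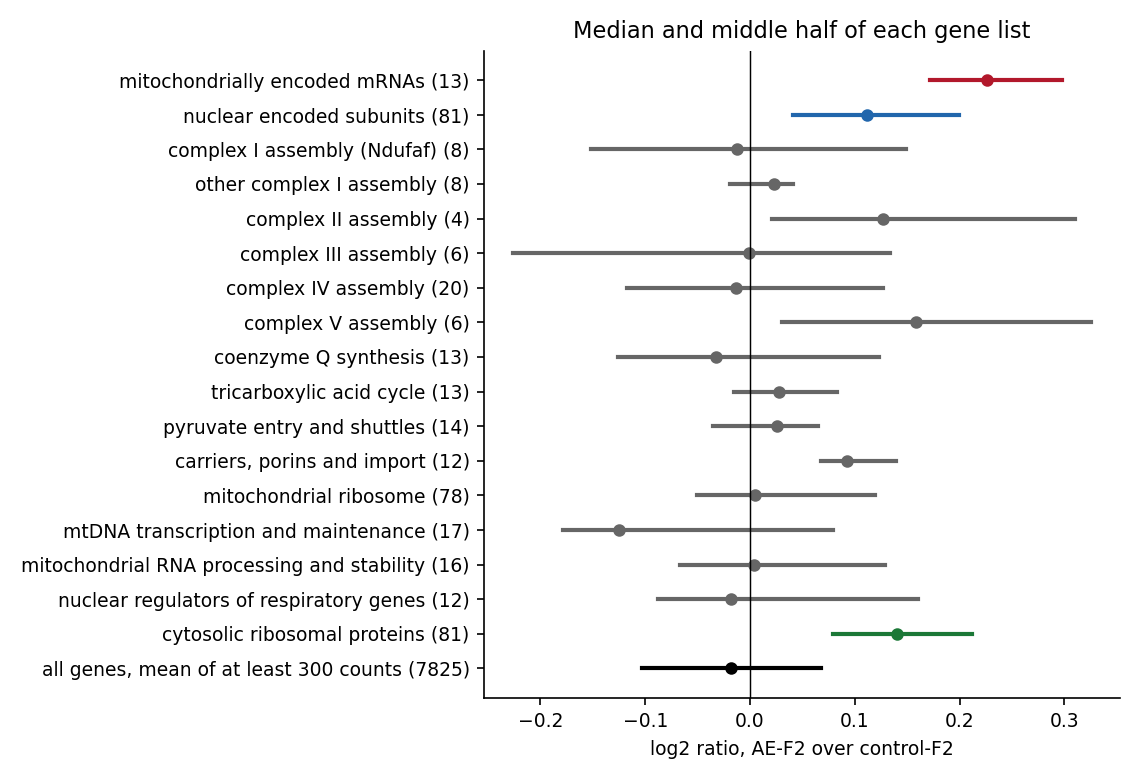
Median log2 ratio (point) and interquartile range (line) of the respiratory, mitochondrial and ribosomal gene lists and of all genes that average 300 counts or more, with the number of genes in parentheses. Of the lists drawn, the mitochondrially encoded mRNAs lie highest with a median of 0.23, the nuclear subunits lie at 0.11 and the cytosolic ribosomal proteins at 0.14, and the mitochondrial ribosome lies at 0.00.

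Promoters of the nuclear encoded members were searched for short motifs of factors known from respiratory genes. RefSeq promoters of 300 bases around the transcription start (GRCm38.p6) were matched for 75 of 96 nuclear symbols, with 81 promoters in all. The letters GCGCATGCG of the NRF1 motif, on either strand, were in 11 of the 81 (13.6%) and in 1.75% of all 32851 promoters. The ETS motif CCGGAAG, which GABP binds, was in 22.2% of the members' and 8.86% of all promoters. The YY1 motif AAGATGGCG was in 9.88% and 1.4%. The GC box GGGCGG was in 43.2% against 35.7%, and the CCAAT box (letters CCAAT) in 43.2% against 37.4%. The NRF1 letters overlap their own reverse complement in a palindromic site, and such a site was counted as 1 match.

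Median ratios were close with and without each motif. The 11 members with enough counts and the NRF1 letters had a median of 0.10, and the 60 without had one of 0.12. For the ETS motif the medians were 0.11 and 0.12, for the YY1 motif 0.14 and 0.12, for the GC box 0.10 and 0.14, and for the CCAAT box 0.10 and 0.13. A match is a description of the sequence and not a site of binding. Promoters are shown for 4 members: Atp5k, the nuclear subunit with the highest ratio; Atp5l, subunit g of the same membrane part (1745 and 2613 counts, 0.20, 0.11 to 0.29); Cox6a1, the paralogue of Cox6a2; and Cycs, with a ratio near 0. All run 5′ to 3′ on the strand of the gene, and capitals mark the letters of the 5 motifs.
Atp5k, chr5:108434350-108434649, minus strand: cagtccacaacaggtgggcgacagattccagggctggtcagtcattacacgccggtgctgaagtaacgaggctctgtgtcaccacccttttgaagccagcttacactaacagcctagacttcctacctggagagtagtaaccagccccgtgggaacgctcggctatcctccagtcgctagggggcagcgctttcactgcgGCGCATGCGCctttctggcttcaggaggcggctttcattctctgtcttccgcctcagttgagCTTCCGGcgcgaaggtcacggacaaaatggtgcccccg
Atp5l, chr9:44920693-44920992, minus strand: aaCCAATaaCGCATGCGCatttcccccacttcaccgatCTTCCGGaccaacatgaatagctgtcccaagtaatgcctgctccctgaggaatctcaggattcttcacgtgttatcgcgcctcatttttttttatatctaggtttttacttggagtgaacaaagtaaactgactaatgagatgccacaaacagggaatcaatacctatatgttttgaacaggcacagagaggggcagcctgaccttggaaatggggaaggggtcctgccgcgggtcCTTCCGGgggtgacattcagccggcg
Cox6a1, chr5:115348909-115349208, minus strand: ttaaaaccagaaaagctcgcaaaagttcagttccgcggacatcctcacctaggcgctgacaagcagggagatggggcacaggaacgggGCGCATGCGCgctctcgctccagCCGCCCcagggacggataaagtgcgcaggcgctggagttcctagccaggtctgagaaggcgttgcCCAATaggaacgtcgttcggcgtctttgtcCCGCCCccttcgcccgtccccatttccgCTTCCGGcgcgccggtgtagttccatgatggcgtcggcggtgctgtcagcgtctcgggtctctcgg
Cycs, chr6:50566520-50566819, minus strand: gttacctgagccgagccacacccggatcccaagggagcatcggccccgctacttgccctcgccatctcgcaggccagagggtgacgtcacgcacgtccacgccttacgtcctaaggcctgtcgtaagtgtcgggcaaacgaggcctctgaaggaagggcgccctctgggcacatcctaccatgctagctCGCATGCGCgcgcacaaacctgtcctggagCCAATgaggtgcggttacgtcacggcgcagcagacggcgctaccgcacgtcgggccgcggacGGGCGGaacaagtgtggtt
All 4 hold the NRF1 letters, which only 11 of the 81 promoters of members do, so the 4 are not typical of the members. Their ratios span from 0.01 for Cycs to 0.43 for Atp5k, and a link of the ratio with the motif was not tested. Atp5k, Atp5l and Cox6a1 also hold the ETS letters, while Cycs does not.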

How the data were processed

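Islet RNA-seq libraries of control-F2 and AE-F2 males were analysed, 1 per group, and 5 of the 7 samples in the labels were not analysed here. The study's methods describe poly(A) selection on oligo(dT) beads, Illumina sequencing and alignment with HISAT2. The submitters' processing notes name Bowtie2, RSEM and DESeq2 instead, and the genome build and annotation are not given in the sources used here. The authors deposited estimated counts (expected counts) per Ensembl gene, not scaled for depth or length. Values that were not whole made up 8.56% (control-F2) and 9.28% (AE-F2). The columns hold no fold changes or p-values.

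Counts were rounded and scaled with TMM in edgeR 4.0.16 (R 4.3.3), with factors of 1.00 (control-F2) and 0.999 (AE-F2), and 13627 of 21899 genes, those averaging 10 counts or more, were kept. Ratios used a pseudocount of 0.5 counts, and 95% Clopper-Pearson intervals on the share of each gene's counts that came from AE-F2 were computed with scipy 1.17.1. A count of 0 allows up to 3 counts. No model was fitted, since only 1 library of each group was analysed here. The code was tested on simulated data with the depths of the real libraries. Symbols, transcript lengths (best APPRIS transcript) and mtDNA positions came from GENCODE M21 (GRCm38), and promoters from RefSeq. The list symbols Teffm and Prorp were not among those matched. The larger AE-F2 library gives the smaller counting error at the same level.

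Members and gene lists were chosen by hand with earlier results of these data known. The text names every mitochondrially encoded mRNA, complex II, Cyc1 and Cycs, in each complex the most abundant nuclear subunit per kb and those with the highest and lowest ratio, members at least 25% higher or 20% lower that average 100 counts or more, the paralogue sets, and of each other pathway list the genes past the same threshold and the one with the most counts over both libraries. Genes named for a role or a sequence alone (among them Tfam, Polrmt, Nrf1, Gabpa, Gabpb1, Nfe2l2, Ptprc, Lyz2, Lrpprc, Ppargc1a, Ndufaf3, Ndufb1-ps, Cox7a2l, Atp5s and Atp5l) were chosen after their values were seen. The value of 1 gene that this rule covers is not reported here. Alternatives were DESeq2 1.42.0 size factors, library totals, totals without the mitochondrial genes and insulins, other minimum counts, a pseudocount of 5, unrounded counts, a threshold of 1.5-fold, and removal of length and GC trends (lowess, statsmodels 0.14.6).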

Additional observations from a re-analysis of the deposited data

How the results depend on the processing

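No paired analysis was possible because only 1 library per group was analysed, and for the same reason no replicate could be left out. Size factors, totals, filters, pseudocount and rounding left the medians of the mitochondrially encoded mRNAs, of the nuclear subunits of each complex and of the Ndufaf genes, the ratio of Cycs and the summed mitochondrial ratio in their direction, while medians of the other lists were not recomputed. The median of all genes, -0.001 with the settings of the report, was 0.005 with totals that leave out the mitochondrially encoded genes, Ins1 and Ins2, and 0.006 with a minimum mean of 1 count. All 13 mitochondrially encoded mRNAs stayed above 0 under each of the 9 alternatives. With the totals that leave these genes and the insulins out, their summed ratio was 0.20. Removing length and GC trends brought their median from 0.23 to 0.12 and their summed ratio from 0.19 to 0.092. The number of members at least 25% higher went from 11 to 1, and of those at least 20% lower from 1 to 2 (Cox6a2 and the weakly expressed Cox4i2). With trends fitted without members and cytosolic ribosomal protein genes, an alternative chosen after seeing the data, the values were 0.14, 0.11 and 4 higher members (mt-Nd3, Ndufa5, Ndufb6 and Atp5k). At 1.5-fold, 0 members were higher and 0 lower. A minimum mean of 1 count gave 2 lower members, the added one being Cox6b2 with 1 count in each library, and 12 higher members, the added one being Cox7a1 with 0 and 7 counts. A minimum mean of 100 counts moved the Ndufaf median from -0.01 to -0.11 and that of complex IV from 0.13 to 0.20, which put it above the mitochondrial median of that complex. With trends removed, the nuclear medians of complexes IV and V were both 0.06. The nuclear median minus the mitochondrial one, -0.11 with the settings of the report, was -0.05 and -0.04 with the trends removed in these 2 ways. The nuclear subunit median ran from 0.07 to 0.12, and Cycs from -0.02 to 0.02. Depth limits the weakly expressed members: for Ndufaf1, with 95 and 138 counts, the interval of the ratio of 0.15 runs from -0.23 to 0.55.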
